A study of Mus musculus with 5 samples.

Results

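Cytochrome P450 genes were examined in 3 windows of the mouse genome: the Cyp2c window on chromosome 19 from 39000000 to 40300000, the Cyp4 window on chromosome 4 from 114700000 to 115300000, which holds Cyp4a, Cyp4b and Cyp4x genes, and the Cyp2e1 window on chromosome 7 from 147935000 to 147975000. They were set by position and not by a cut on their reads, though with earlier results of these data known. Positions are those of the deposited files, taken as mm9. In bins of 5 kb they make up 388 bins, 260 in the Cyp2c, 120 in the Cyp4 and 8 in the Cyp2e1 window, of 502038 bins with reads in the genome. The tissues were whole liver, kidney, brain, lung and spleen of adult FVB mice, and the chromatin bound by RNA polymerase II in each was precipitated with an antibody and sequenced. All 5 tissues were freshly dissected and crosslinked, and the labels name no treatment, sex, exact age or number of animals. Each tissue had 1 library, so no difference between tissues has a replicate check, and every interval below covers counting error only. The reads carry no molecular identifiers and may repeat a molecule, so even that error may be larger. In whole tissue, fewer cells of a type and less polymerase per cell cannot be told apart.

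Cytochromes P450 are haem enzymes that oxidise drugs, steroids, fatty acids and other lipids, most of them in the endoplasmic reticulum of hepatocytes. Cyp2c enzymes oxidise drugs and convert arachidonic acid to epoxides. Cyp4a enzymes hydroxylate the end carbon of fatty acids in liver and in the kidney's proximal tubule, Cyp4b1 is best known from lung, and Cyp2e1 oxidises ethanol and paracetamol. Polymerase is densest over genes that are being transcribed, and it gathers near their starts and ends. The gene table, on assembly GRCm38, lists 14 coding Cyp2c genes and 4 pseudogenes side by side with no other coding gene among them, in the order Cyp2c55, Cyp2c65, Cyp2c66, Cyp2c29, Cyp2c39, Cyp2c38, Cyp2c67, Cyp2c68, Cyp2c40, Cyp2c69, Cyp2c37, Cyp2c54, Cyp2c50 and Cyp2c70. The Cyp4 group has 10 coding genes and 4 pseudogenes, from Cyp4x1 through Cyp4a29, Cyp4a12a, Cyp4a12b, Cyp4a30b, Cyp4a14, Cyp4a10, Cyp4a31 and Cyp4a32 to Cyp4b1. No gene positions of the files' own build were used, so no bin inside the Cyp2c and Cyp4 windows is assigned to a gene. For the same reason the tissues were not checked against marker genes here.

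Promoter sequences, from RefSeq, are shown for 5 of these genes: the gene that the smallest window is named for, a pair of Cyp2c promoters of which no stretch of 35 bases recurs in another member's promoter, and a pair that are nearly the same. Each runs from 250 bases before to 50 bases after the annotated start, and its coordinates belong to GRCm38.p6 and cannot be set beside the deposited ones. Capitals mark matches, on either strand, to 5 motifs: TATAAA, the TATA box, CCAAT, the CCAAT box, TTATGCAA, a form of the site of C/EBP factors, AGGTCA, a core element of nuclear receptors such as Hnf4a, and CACGTG, an E-box. No match overlapped one of another motif in the promoters printed.
Cyp2e1 promoter (GRCm38.p6, chr7:140763569-140763868, plus strand): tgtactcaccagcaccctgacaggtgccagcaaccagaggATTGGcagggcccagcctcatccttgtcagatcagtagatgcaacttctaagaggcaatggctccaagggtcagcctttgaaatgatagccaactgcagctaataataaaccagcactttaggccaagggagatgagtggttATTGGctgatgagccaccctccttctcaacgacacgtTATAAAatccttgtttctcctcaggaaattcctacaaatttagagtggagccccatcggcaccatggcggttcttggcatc
Cyp2c29 promoter (GRCm38.p6, chr19:39286835-39287134, plus strand): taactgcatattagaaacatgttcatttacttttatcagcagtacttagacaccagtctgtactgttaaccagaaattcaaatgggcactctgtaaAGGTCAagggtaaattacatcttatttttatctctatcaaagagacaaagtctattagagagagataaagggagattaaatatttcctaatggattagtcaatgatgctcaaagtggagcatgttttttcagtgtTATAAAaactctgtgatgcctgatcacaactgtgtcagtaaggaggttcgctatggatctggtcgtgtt
Cyp2c70 promoter (GRCm38.p6, chr19:40187237-40187536, minus strand): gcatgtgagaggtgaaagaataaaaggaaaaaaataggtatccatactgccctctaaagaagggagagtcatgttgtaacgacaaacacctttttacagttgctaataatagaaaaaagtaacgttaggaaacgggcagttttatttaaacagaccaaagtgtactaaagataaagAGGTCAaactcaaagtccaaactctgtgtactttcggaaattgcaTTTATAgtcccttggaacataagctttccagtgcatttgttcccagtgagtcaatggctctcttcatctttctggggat
Cyp2c40 promoter (GRCm38.p6, chr19:39812765-39813064, minus strand): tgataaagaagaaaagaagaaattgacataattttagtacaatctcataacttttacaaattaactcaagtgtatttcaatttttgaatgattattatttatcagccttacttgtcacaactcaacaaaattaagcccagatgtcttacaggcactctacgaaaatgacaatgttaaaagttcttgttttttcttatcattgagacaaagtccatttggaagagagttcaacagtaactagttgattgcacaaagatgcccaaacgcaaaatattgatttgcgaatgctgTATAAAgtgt
Cyp2c69 promoter (GRCm38.p6, chr19:39886720-39887019, minus strand): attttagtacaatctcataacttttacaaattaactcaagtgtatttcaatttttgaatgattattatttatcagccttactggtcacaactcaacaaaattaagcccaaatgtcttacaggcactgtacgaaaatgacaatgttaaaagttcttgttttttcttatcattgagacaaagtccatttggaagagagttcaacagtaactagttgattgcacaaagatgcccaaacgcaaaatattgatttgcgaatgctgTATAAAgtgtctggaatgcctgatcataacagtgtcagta
In Cyp2e1 TATAAA begins 31 bases before the start, and CCAAT is found on the opposite strand at 210 and 68 bases before it. TATAAA begins 19 bases before the annotated start in Cyp2c29 and, on the opposite strand, 29 before it in Cyp2c70. In the near-identical pair it lies past the annotated start, by 40 bases in Cyp2c40 and 10 in Cyp2c69, an offset of the annotated starts and not of the letters. TATAAA stood in 10 of the 14 Cyp2c promoters in the table, against 13.6% of all 32851 promoters; Cyp2c39 has a pair of entries and Cyp2c54 none. It stood in 1 of the 4 Cyp4 promoters found there. CCAAT stood in 5 of the 14 Cyp2c promoters and 37.4% of all. AGGTCA stood in Cyp2c29, Cyp2c39 and Cyp2c70, 3 of 14, against 16.3% of all. Neither TTATGCAA nor CACGTG was found in these promoters, against 0.743% and 7.15% of all. A match describes the letters of this stretch and is not a binding site.

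The likeness of the members bears on the counts. The Cyp2c40 and Cyp2c69 promoters matched, without gaps, at 267 of 270 aligned bases (98.9%), the Cyp2c67 and Cyp2c69 promoters at 92.8%, and the Cyp2c37 and Cyp2c50 promoters at 71.1%. Of the 266 stretches of 35 bases, the read length, in the Cyp2c40 promoter, 176 (66.2%) also occurred in another member's promoter, as did 163 (61.3%) of those in Cyp2c69. The promoters of Cyp2e1, Cyp2c29 and Cyp2c70 shared none with the others searched. How reads with several hits were placed is not given, so reads of near-identical copies are uncertain. Bins with at most 5 reads in every library made up 28 of 260 (10.8%) in the Cyp2c window and 17 of 120 (14.2%) in the Cyp4 window, against 4.05% of all bins with reads, and 5 Cyp2c bins held no read in any library. The part of repeated sequence in these empty bins was not tested.

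The libraries held 10292262 to 14964934 reads, and the median bin 24 liver, 20 kidney, 14 brain, 16 lung and 25 spleen reads. Scaled counts are reads divided by a factor per library taken from shared peak regions. Against a scaling by the median bin, these factors lower brain by 0.50 and lung by 0.44 and raise spleen by 0.96 on the log2 scale, so scaled spleen counts stand high wherever a bin holds background reads. The density of a window over its own library's mean needs no scaling between tissues and is given first.

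Cyp2e1 carried the densest polymerase signal of the 3 windows, and that signal was in liver. The window held 18.2 times the library's mean density in liver, against 1.10 for kidney, 0.805 for brain, 1.09 for lung and 1.22 for spleen. It held 4345 liver, 242 kidney, 132 brain, 188 lung and 258 spleen reads. Scaled, liver was 16.8-fold over kidney (95% interval 14.7 to 19.2) and 16.4-fold over the mean of brain, lung and spleen (15.1 to 18.0). Kidney was 0.980-fold that mean (0.840 to 1.14). With spleen left out of the mean, liver was 25.3-fold and kidney 1.51-fold over it. With background subtracted, liver was 42.9-fold and kidney 1.29-fold over the mean of the 3 tissues, and liver was 33.2-fold over kidney. Background here was each library's median bin count, and a bin left below 3 reads was set to 3.

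Within the window, 4 adjacent bins from 147945001 to 147965000 were high in liver: each held at least 20 liver reads and at least 4 times the scaled count of every other tissue. Over the genome, 0.219% of the 397111 bins with at least 20 reads in some tissue met this rule. The bin from 147955001 to 147960000 held 1992 liver, 60 kidney, 39 brain, 67 lung and 73 spleen reads, 31.0-fold over kidney (24.0 to 40.8). It ranked 42 among all bins of the genome by liver reads. Its left neighbour held 1617 liver, 44 kidney, 17 brain, 24 lung and 28 spleen reads, 34.3-fold over kidney (25.5 to 47.4), and ranked 60. The outer called bins were lower in liver. From 147945001 to 147950000 there were 281 liver, 46 kidney, 10 brain, 21 lung and 18 spleen reads. From 147960001 to 147965000 there were 302 liver, 35 kidney, 27 brain, 15 lung and 33 spleen reads. These 4 bins held 96.5% of the window's liver reads, while the 4 fullest bins of the other tissues held 65.9% to 76.4% of theirs.

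Steps of 1 kb showed sharp edges. Liver reads numbered 7 in the step before 147949001 and 221 in the next, and 130 in the last step before 147962000 and 7 after it. Each of the 13 steps between these edges held at least 100 liver reads, which is how this stretch was chosen. It held 4115 liver reads, 317 per kb, against 8.52 per kb in the rest of the window. The profile in liver had 423 reads in the step from 147950001, a dip to 154 in the next, a top of 596 from 147955001 and a slow decline to 130. The strands were balanced, with 50.8% of liver reads in the 4 called bins on the plus strand. Of liver reads in the window, 15.6% repeated the position and strand of another read, against 8.87% in the whole library.

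The other tissues also had more reads per kb inside this stretch than beside it. Kidney held 150 reads there, 11.5 per kb against 3.41 per kb in the rest of the window. Brain held 71 reads, lung 111 and spleen 124. Over the rest of the window, density there was 37.2 times as high in liver, 3.39 times in kidney, 2.42 times in brain, 2.99 times in lung and 1.92 times in spleen. Kidney reads were spread differently from liver reads. The first 2 kb of the stretch held 15.7% of its liver reads (644 of 4115; 95% interval 14.6% to 16.8%), against 29.3% of its kidney reads (44 of 150; 22.2% to 37.3%). In brain, lung and spleen the first 2 kb held 22.5%, 17.1% and 12.9%, each with an interval that includes the liver share. The middle 9 kb held 77.4% in liver (76.1% to 78.7%) and 55.3% in kidney (47.0% to 63.4%). The last 2 kb held 6.93% in liver (6.17% to 7.74%) and 15.3% in kidney (9.98% to 22.1%), so the kidney share was larger at both ends. Background reads were not subtracted from these shares. In the 1 kb steps liver over kidney was 8.98-fold (5.83 to 14.5) from 147949001, 18.8-fold (12.2 to 30.7) from 147950001 and 68.1-fold (32.8 to 170) from 147956001. The lowest fold of the stretch was 6.90 (4.36 to 11.5) from 147960001. Lung had 24 reads and spleen 24 in the step from 147955001, the step with the most reads in both, and liver was highest there too. Kidney (23 reads, as from 147949001) and brain (10 reads, as from 147958001) also reached their highest counts in that step.

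**Figure D1:**
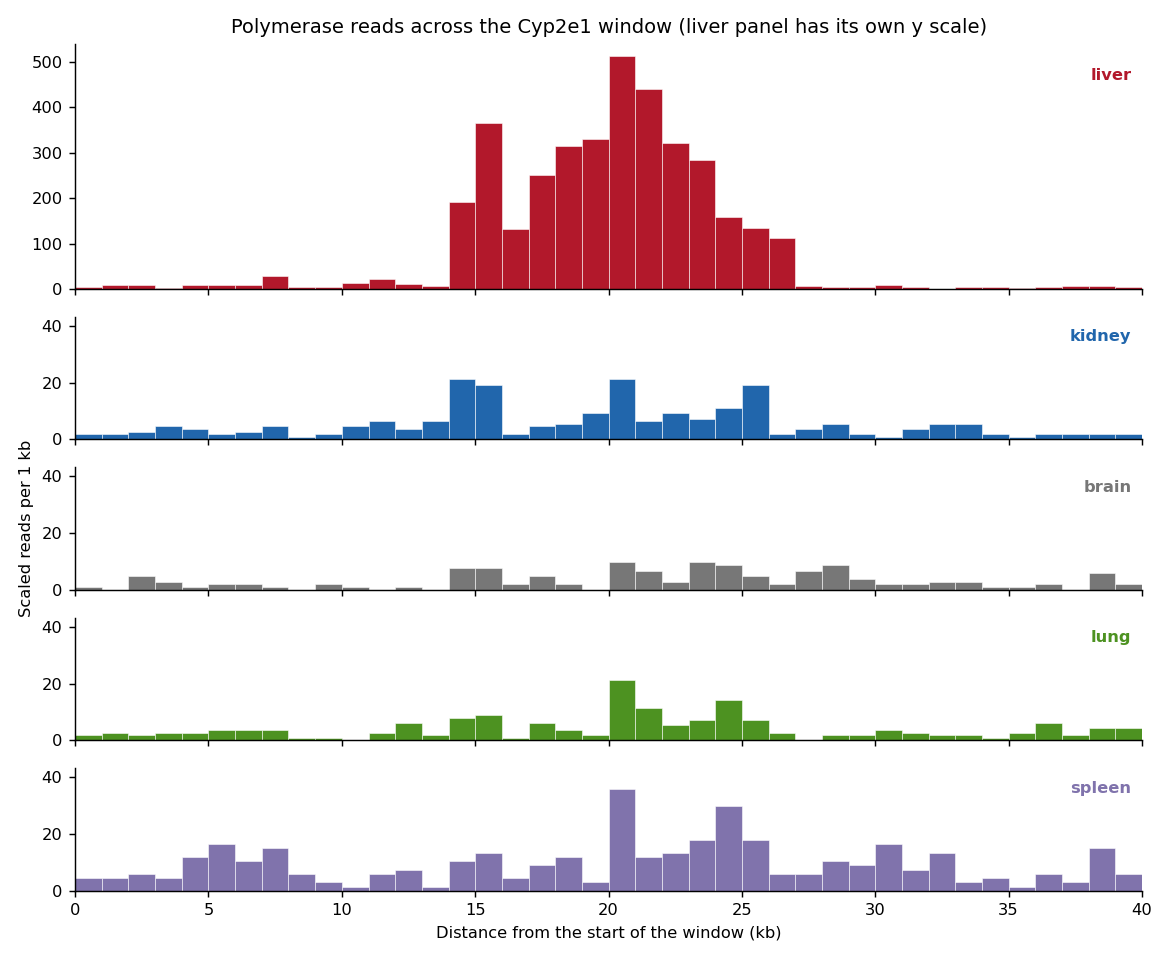
Scaled reads per 1 kb (y axis) against distance from the start of the Cyp2e1 window in kb (x axis), 1 library per tissue; the liver panel has its own y scale and the other 4 share one. Liver rises sharply at 14 kb and drops at 27 kb, and the other tissues stay far lower between these edges.

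The Cyp2c window was likewise led by liver, with long stretches near background and a few blocks well above it. It held 1.12 times the mean density of its library in liver, against 0.301 for kidney, 0.204 for brain, 0.267 for lung and 0.403 for spleen. There were 8667 liver, 2152 kidney, 1088 brain, 1498 lung and 2770 spleen reads. Scaled, liver was 3.76-fold over kidney (3.59 to 3.95), 7.04-fold over brain (6.61 to 7.51), 5.61-fold over lung (5.31 to 5.93) and 1.80-fold over spleen (1.72 to 1.88). With scaling by the median bin, liver over spleen was 3.26-fold and liver over kidney 3.36-fold. Kidney was 0.909-fold the mean of brain, lung and spleen (0.864 to 0.956), but 1.14-fold with scaling by the median bin and 1.04-fold by total reads, so no direction is given for kidney here.

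Of the 260 Cyp2c bins, 133 had at least 20 reads in some tissue. Of these, 27 (20.3%) were high in liver, against 0.219% of bins over the genome. None was high in kidney (0.07% over the genome), in both liver and kidney (0.0196%), in brain (0.0285%), in lung (0.00881%) or in spleen (0.196%). At such shares over the genome, a count of 0 in 133 bins says little of these tissues. The count for liver depended on spleen, which was the next highest tissue in 117 of the 124 bins with at least 20 liver reads. It was 44 with scaling by the median bin and 46 with total reads, where the share over the genome also rose, to 0.276% and 0.299%. With spleen left out it was 63, and no share over the genome was computed for that rule. Compared with kidney alone, 66 of the 133 bins (49.6%) were at least 4-fold higher in liver, against 0.619% over the genome, and 0 were 4-fold higher in kidney, against 0.487%. With at least 50 liver reads required, 34 bins were 4-fold over kidney, and no share over the genome was computed for that minimum. The median bin with at least 20 reads in some tissue was higher in liver than in kidney by 1.95 on the log2 scale, against 0.05 over all such bins of the genome. Just inside the 4-fold line, the bin from 39620001 to 39625000 was 4.06-fold over spleen, and just outside it the bin from 39615001 to 39620000 was 3.95-fold.

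The called bins formed 15 runs, of which 3 had at least 3 adjacent bins. The longest covered 7 bins from 39360001 to 39395000. It held 1206 liver, 76 kidney, 46 brain, 59 lung and 93 spleen reads, and liver was 14.8-fold over kidney (11.8 to 18.9) and 7.44-fold over spleen (6.02 to 9.29). Its second bin, from 39365001 to 39370000, had the most, 317 liver reads, with between 13 and 24 in each other tissue. Bins towards higher coordinates held 111 to 152 liver reads each up to 39405000, and the count then fell to 15. The second run, 3 bins from 40250001 to 40265000, held 859 liver, 55 kidney, 30 brain, 39 lung and 64 spleen reads, 14.6-fold over kidney (11.1 to 19.5). It ended in the fullest bin of the window, from 40260001 to 40265000, with 394 liver, 20 kidney, 8 brain, 17 lung and 19 spleen reads, 18.4-fold over kidney (11.8 to 30.5). The next bin held 12 liver reads. The third run, from 39600001 to 39615000, held 351 liver, 27 kidney, 14 brain, 13 lung and 41 spleen reads, 12.1-fold over kidney (8.20 to 18.7). Bins at least 4-fold over kidney joined it to a stretch of 11 bins, from 39600001 to 39655000, with 1144 liver, 95 kidney, 44 brain, 56 lung and 174 spleen reads.

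**Figure D2:**
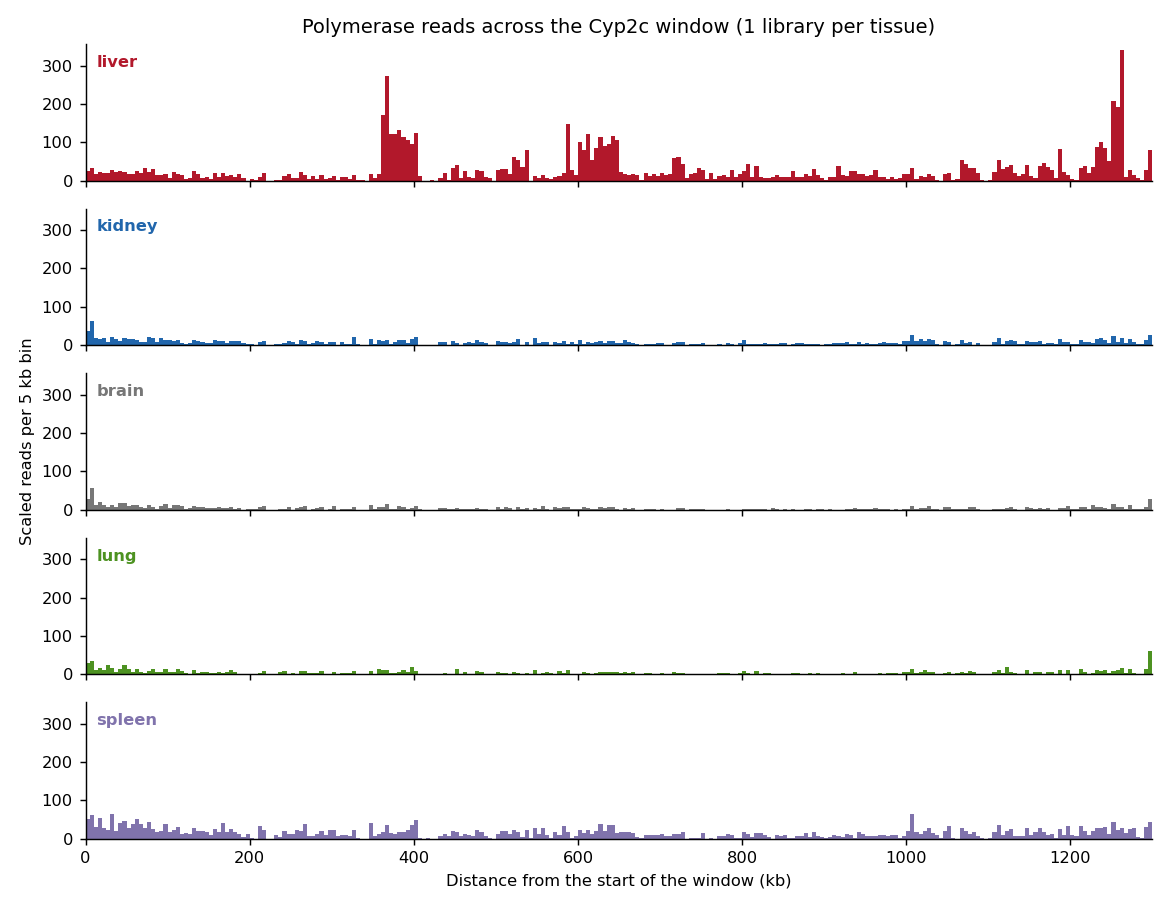
Scaled reads per 5 kb bin (y axis, the same in all panels) against distance from the start of the Cyp2c window in kb (x axis), 1 panel per tissue with 1 library each. Liver has tall bins in the blocks that start at 300, 500, 600 and 1200 kb, and the other 4 tissues have none as tall there.

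The bins with the largest fold of liver over kidney were picked for it, and their intervals do not cover that choice. The bin from 39585001 to 39590000 held 172 liver, 3 kidney, 8 brain, 11 lung and 12 spleen reads, 53.6-fold over kidney (18.0 to 262). It stood 10 kb apart from the third run, with 31 and 18 liver reads in the bins between. The bin from 39370001 to 39375000 held 142 liver, 3 kidney, 1 brain, 3 lung and 10 spleen reads, 44.2-fold (14.8 to 217). The third, from 39605001 to 39610000, held 92 liver reads and 3 kidney reads, 28.6-fold (9.50 to 141).

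In blocks of 100 kb, scaled liver reads exceeded scaled kidney reads in all 13 blocks, under each of the 3 scalings used. The fold was lowest in the first 3 blocks, at 1.19 (1.04 to 1.36), 1.38 (1.14 to 1.67) and 1.40 (1.11 to 1.76). With scaling by the median bin the lowest was 1.06. It was highest from 39600001 to 39700000, at 8.43 (7.09 to 10.1), and was 7.52 (6.43 to 8.84) from 39300001 to 39400000. From 39700001 to 39800000, reads were sparse in every tissue, 507 liver, 67 kidney, 17 brain, 45 lung and 91 spleen reads, yet liver was 7.07-fold over kidney (5.47 to 9.26). From 39800001 to 39900000 there were 363 reads in liver and 77 in kidney, 4.40-fold (3.44 to 5.71). In the block before the last liver was 3.58-fold over kidney (3.02 to 4.27), and in the last 6.16-fold (5.37 to 7.08). The lead of liver over kidney was thus not limited to the called runs, and the 10 fullest bins held 24.5% of the window's liver reads. Over its own library's mean, spleen stood above liver in the first 3 blocks, at 0.952 against 0.866, 0.482 against 0.473 and 0.353 against 0.329. In every later block liver stood above spleen.

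**Figure D3:**
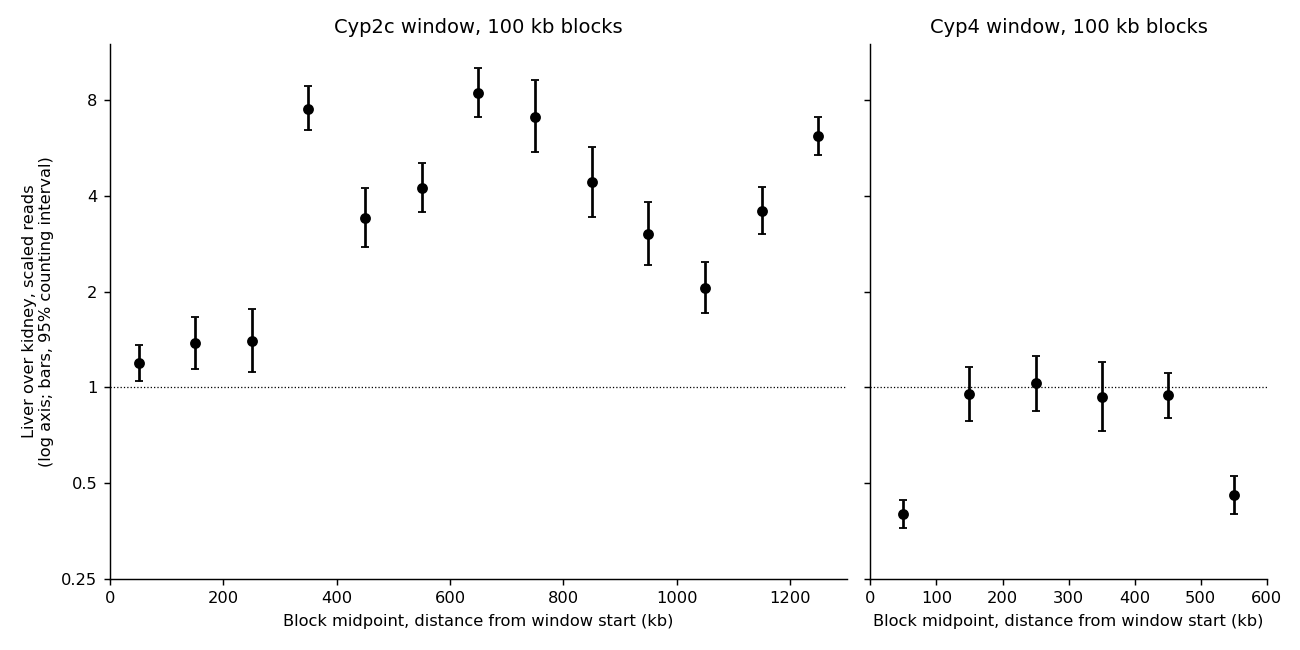
Fold of scaled liver over scaled kidney reads (y axis, log scale) in blocks of 100 kb against the block's distance from the window's start in kb (x axis); bars are 95% counting intervals and the dotted line marks 1. All 13 Cyp2c blocks have their interval above 1. Of the 6 Cyp4 blocks, the first and the last have it below 1, and the 4 between have intervals that include 1.

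At the start of the Cyp2c window liver did not lead. The bin from 39005001 to 39010000 held 69 kidney, 39 liver, 57 brain, 40 lung and 41 spleen reads. Kidney was 1.89-fold over liver there (1.26 to 2.88), the largest such fold among the window's bins with at least 20 kidney reads. The next largest among such bins, 1.61 (0.779 to 3.41) from 39545001 to 39550000 and 1.51 (0.918 to 2.53) from 39000001 to 39005000, had intervals that include 1. Sparser bins reached higher folds, such as 2.14 with 12 kidney and 6 liver reads from 39280001 to 39285000. The last bin, from 40295001 to 40300000, held 94 liver, 29 kidney, 29 brain, 67 lung and 30 spleen reads, and liver was 3.03-fold over kidney (1.98 to 4.76). Over lung, the next highest after scaling, liver was 1.36-fold (0.984 to 1.89), an interval that includes 1. In GRCm38 the next coding genes outside the group are Hells, a chromatin remodelling helicase, on the side of Cyp2c55, and Pdlim1, a cytoskeletal adaptor, on the side of Cyp2c70. Whether these bins belong to them was not examined.

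In the Cyp4 window kidney, not liver, held most reads. The window held 0.830 times the mean density of its library in kidney, against 0.479 for liver, 0.352 for brain, 0.654 for lung and 0.587 for spleen. There were 2736 kidney, 1714 liver, 867 brain, 1695 lung and 1863 spleen reads. Scaled, liver was 0.585-fold kidney (0.551 to 0.622), and kidney was 1.47-fold the mean of brain, lung and spleen (1.40 to 1.54). Kidney was 2.99-fold over brain (2.76 to 3.23) and 1.68-fold over lung (1.58 to 1.78), but 0.902-fold spleen (0.851 to 0.958), and 1.84-fold over spleen with scaling by the median bin. Liver was 0.861-fold the mean of the 3 tissues (0.814 to 0.910), and 1.26-fold that of brain and lung, with spleen left out.

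Of the 120 Cyp4 bins, 50 had at least 20 reads in some tissue. None was high in kidney, against 0.07% over the genome, and none in liver (0.219%) or in both (0.0196%), so that counts of 0 say little. The kidney count was 1 with scaling by total reads, with the median bin or with each position and strand counted once, 2 at a 3-fold threshold, 3 with spleen left out and 7 with background subtracted. For kidney, no share over the genome was computed under these settings. Of the 50 bins, 4 were at least 4-fold higher in kidney than in liver, against 0.487% over the genome. None was 4-fold higher in liver, against 0.619% over the genome. The highest liver count in a bin was 44, from 115190001 to 115195000, with 30 kidney, 14 brain, 13 lung and 17 spleen reads. Among bins with at least 20 liver reads, the largest fold of liver over kidney was 1.70 (0.914 to 3.28) from 115270001 to 115275000, an interval that includes 1. Among bins with fewer liver reads the largest was 2.99, with 16 liver and 5 kidney reads from 114920001 to 114925000. The 4 middle blocks of 100 kb had folds of liver over kidney of 0.934 to 1.03, each with an interval that includes 1. Liver density in these blocks was 0.223 to 0.505 times the library's mean.

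The 4 fullest bins held 28.5% of the window's kidney reads, 9.63% of its liver reads and 32.7% of its lung reads. The bin from 114765001 to 114770000 held 291 kidney, 39 liver, 20 brain, 51 lung and 52 spleen reads, 7.99-fold over liver (5.70 to 11.5). Its left neighbour held 262 kidney, 43 liver, 18 brain, 55 lung and 59 spleen reads, 6.52-fold over liver (4.71 to 9.23). Kidney was above every other tissue in both bins, which ranked 544 and 724 in the genome by kidney reads. A second place, from 114725001 to 114735000, was led by lung, with 226 kidney, 58 liver, 90 brain, 421 lung and 115 spleen reads. Lung was 1.79-fold over kidney there (1.52 to 2.12). In GRCm38 the coding genes next to Cyp4x1 outside the group are Pdzk1ip1, known from the kidney's proximal tubule, and then Tal1, a transcription factor of blood and endothelial cells. Whether these places belong to P450 genes or to such neighbours was not examined. The first block of 100 kb held 1238 of the window's 2736 kidney reads.

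Kidney also led towards the other end of the window. Taking adjacent bins at least 2-fold higher in kidney than in liver, a threshold chosen after the data were seen, 4 bins from 115235001 to 115255000 held 270 kidney, 77 liver, 18 brain, 49 lung and 72 spleen reads. Kidney was 3.75-fold over liver (2.90 to 4.90), 14.2-fold over brain (8.81 to 24.3), 5.72-fold over lung (4.21 to 7.92) and 2.30-fold over spleen (1.77 to 3.03). One of these bins, from 115240001 to 115245000, was 5.28-fold over liver (2.94 to 10.2). The bin from 115205001 to 115210000 held 63 kidney, 30 liver, 12 brain, 12 lung and 15 spleen reads. The last 2 bins, from 115290001 to 115300000, had more reads in kidney and lung than elsewhere, with 138 kidney, 55 liver, 12 brain, 85 lung and 34 spleen reads. Kidney was 2.69-fold over liver there (1.95 to 3.74) and 1.69-fold over lung (1.28 to 2.24). Cyp4b1 is the last gene of the group in GRCm38, followed by Efcab14, and the window's end was not set against either.

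**Figure D4:**
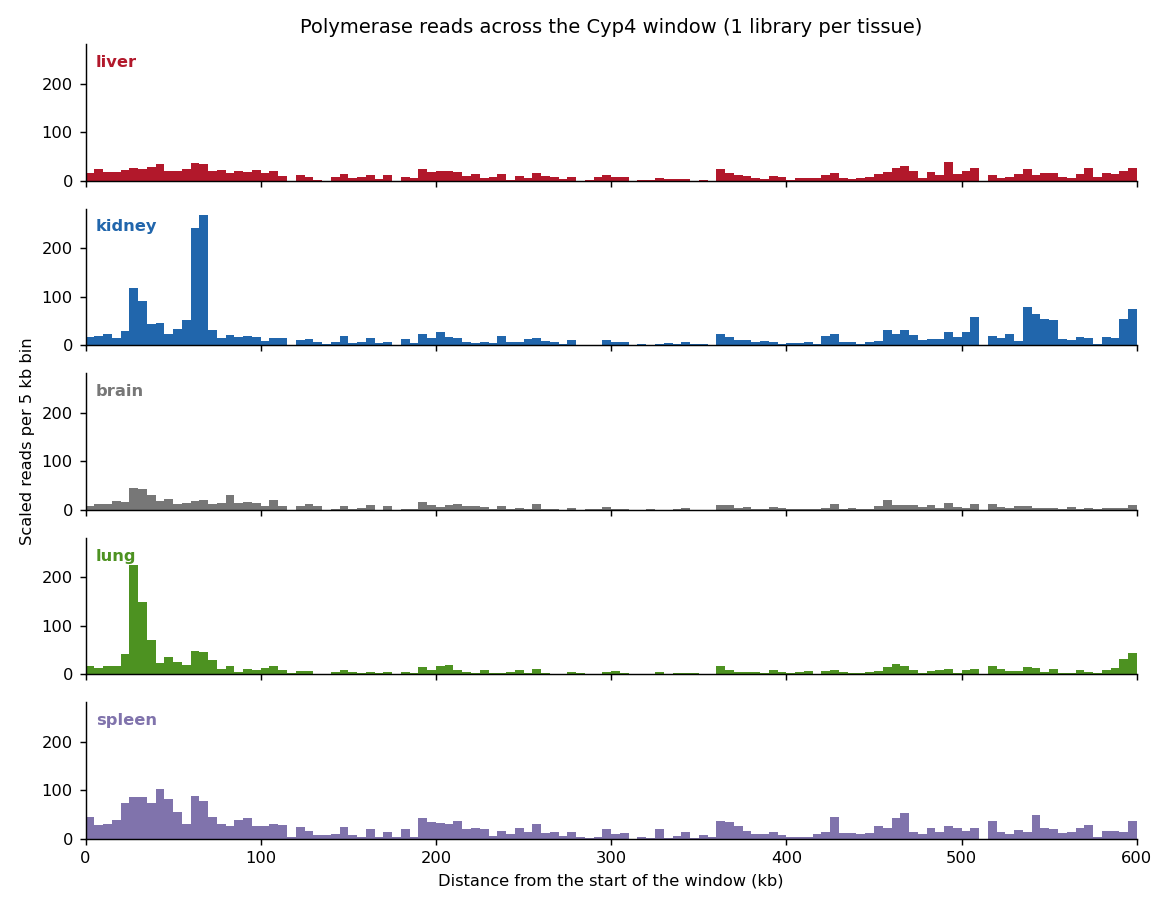
Scaled reads per 5 kb bin (y axis, the same in all panels) against distance from the start of the Cyp4 window in kb (x axis), 1 panel per tissue with 1 library each. Kidney and lung have tall bins in the first 100 kb, kidney has lower ones past 500 kb, and no liver bin is as tall.

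By number in each window, the deposited peaks showed the same division. In the Cyp2c window the authors' lists hold 72 liver, 1 kidney, 2 brain, 2 lung and 2 spleen peaks. Per Mb that was 55.4 in liver against 23.0 for the whole liver list, and 0.769 in kidney against 32.4 for the whole kidney list. None of the 72 liver peaks was shared with a kidney peak, 1, at 40295476, was shared with brain and lung, and the kidney peak, at 39005396, was shared with brain, lung and spleen. With 1 kidney peak in the window, hardly any liver peak could be shared with kidney. Shared peaks were not counted over the whole lists, so no such share stands beside these counts or those of the windows below. Within 250 bp, liver peaks held 13 to 190 liver reads with a median of 24, and kidney had no read at 25 of the 72. The peak at 40261791 held 190 liver, 0 kidney, 0 brain, 3 lung and 1 spleen reads. Next were the peaks at 39585416, with 64 liver reads and 0 to 2 elsewhere, and at 39377716, with 62 liver reads and 1 or 2 elsewhere. The median spacing of liver peaks was 1650 bp.

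In the Cyp2e1 window there were 13 liver peaks, 4 kidney peaks, 1 brain peak, 2 lung peaks and 2 spleen peaks. Per Mb that was 325 in liver against 23.0 for its whole list, and 100 in kidney against 32.4. Lung had 50.0 against 29.1 and spleen 50.0 against 12.6, so these tissues also stood above their lists. Brain, with 1 peak, had 25.0 against 36.5. By windows of 250 bp to both sides, all 4 kidney peaks overlapped a liver peak, and 4 of the 13 liver peaks (30.8%) overlapped a kidney peak. None lay within 100 bp of each other. The liver peaks with the most reads stood at 147955346, with 336 liver, 16 kidney, 6 brain, 19 lung and 14 spleen reads, at 147955996, with 313 in liver and 2 to 6 elsewhere, and at 147956946, with 250 in liver and 2 to 9 elsewhere. Kidney peaks held 14 to 17 kidney reads, and those with the most stood at 147950781 and 147960426, with 17 each, and at 147949581, with 15. The first and the last of these lie within the first 2 kb of the 13 kb stretch, and the other within its last 2 kb.

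In the Cyp4 window kidney had 18 peaks, liver 3, brain 1, lung 11 and spleen 3. Per Mb, kidney had 30.0 peaks against 32.4 in its whole list, so the window was not dense in kidney peaks. Of the 18 kidney peaks, 7 (38.9%) were shared with a lung peak and 1 with a liver peak, and of the 11 lung peaks 6 (54.5%) were shared with a kidney peak. The kidney peaks with the most reads stood at 114761701, with 92 kidney, 6 liver, 5 brain, 20 lung and 5 spleen reads, at 114767601, with 50 in kidney and 1 to 9 elsewhere, and at 114729801, with 46 kidney, 8 liver, 20 brain, 91 lung and 17 spleen reads. Past the first 100 kb, the peak at 115236236 held 44 kidney, 2 liver, 1 brain, 2 lung and 1 spleen reads. The 3 liver peaks held 11 to 15 liver reads, and the one at 114729671 held 100 in lung.

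**Figure D5:**
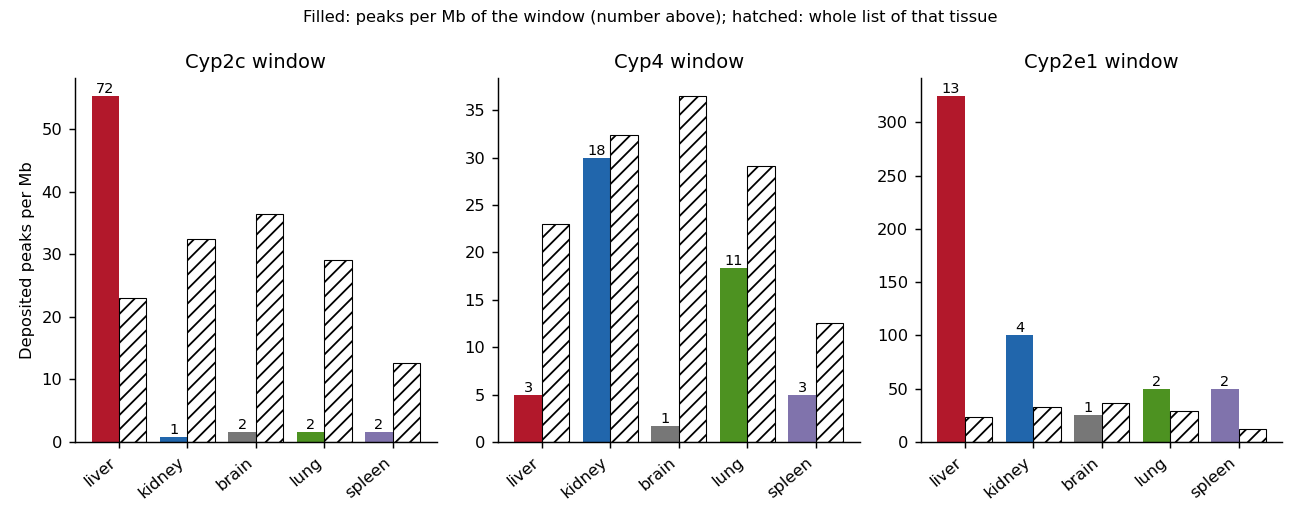
Deposited peaks per Mb (y axis) by tissue (x axis) in the 3 windows; filled bars are the window, with the number of peaks above, and hatched bars the whole list of that tissue. Liver stands above its whole list in the Cyp2c and Cyp2e1 windows and below it in the Cyp4 window. Kidney, lung and spleen also stand above their whole lists in the Cyp2e1 window.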

How the data were processed

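RNA polymerase II was immunoprecipitated from 5 mouse tissues, with 1 library per tissue and no input library used here. The authors deposited aligned reads, 1 per line, and a list of peak positions per tissue with no width, score or p-value. Bowtie was used, per the submitters' processing notes; the sources used here state neither its settings, the handling of reads with several hits, the genome build nor the peak caller. The windows were set in mm9, and the last aligned 5′ end on chromosome 7, at 152524509, lies past the end of the chromosome's last gene in a GRCm38 gene table, so that table gave names and neighbours only.

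Reads of 34 to 36 bases were counted at their 5′ end in bins of 5 kb. Counts were divided by median-of-ratios factors taken over the 8222 merged peak regions that reached 20 reads in all 5 libraries: 1.16 for liver, 1.08 for kidney, 1.03 for brain, 1.13 for lung and 0.666 for spleen. A bin was called high in a tissue at 20 or more reads and 4 times every other tissue after scaling (a count below 3 was taken as 3), and high in both liver and kidney when the lower of these met that rule against brain, lung and spleen. Intervals are 95% exact binomial (Clopper-Pearson) intervals of raw counts. An interval against the mean of 3 tissues pools their reads. No p-value was computed. The calls were tested on simulated counts. These held counting error only and used the same factors, so they cannot show errors of scaling or spread between animals.

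The positions named are, per window, the 3 bins with the most liver reads among called bins, the 3 with the largest fold of liver over kidney and of kidney over liver, runs of at least 3 called bins, and the 3 liver and 3 kidney peaks with the most reads within 250 bp. Bins were ranked by these folds only with at least 20 reads in the tissue named first. Other positions, such as the bins led by lung, the last Cyp2c bin, the bins at the threshold, the kidney peak at 115236236 and the 2-fold runs, were chosen after their values were seen. A further motif is not reported here. The windows, lists and rules were chosen with earlier results of these data known. Alternatives covered scaling, repeated reads, read position, background, grid, read minimum, threshold, spleen, peak strength and overlap. Software was pandas 2.3.3, Matplotlib 3.10.9, SciPy 1.17.1 and NumPy 2.4.6, run under Python 3.11.15.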

Additional observations from a re-analysis of the deposited data

How the results depend on the processing

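Of 210 values recomputed under an alternative, 153 stayed close to the reported one, 52 moved and 5 changed direction. A fold stayed close if it lay within its reported interval. For counts the rule was loose: Cyp2c bins high in liver, 27, counted as close at 40 (3-fold threshold) and 19 (at least 50 reads). So did 72 Cyp2c liver peaks at 50. Direction was judged only where the reported interval left out 1, so kidney over the 3 tissues in Cyp2e1 could not be among the 5. Many of the 153 were counts of 0 that stayed at 0, and some of these, as under a stricter read minimum, could not change. Where no construction shows it, the cause of a change was not tested. Moving reads 100 bp downstream of their 5′ ends moved none of the values. Folds below against the mean of brain, lung and spleen are called folds over the mean. With total reads as the scaling, the Cyp2c fold over the mean was 3.84 for liver and 1.04 for kidney, a change of direction, the Cyp4 fold was 1.56 for kidney, and 46 Cyp2c bins were high in liver and 1 Cyp4 bin in kidney. With the median bin these were 3.84, 1.14 (again a change of direction), 1.69, 44 and 1, liver over kidney was 3.36 in Cyp2c and 0.522 in Cyp4, and kidney over the mean was 1.15 in Cyp2e1. With background subtracted, the folds over the mean for liver and kidney were 4.43 and 0.821 in Cyp2c, 0.512 and 1.86 in Cyp4, and 42.9 and 1.29 in Cyp2e1. Liver over kidney was then 5.39, 0.275 and 33.2 in these windows. Called bins then numbered 43 high in liver and 1 with kidney 4-fold over liver in Cyp2c, 7 high in kidney and 15 with kidney over liver in Cyp4, and 1 high in both in Cyp2e1. A bin left below 3 reads by the subtraction was set to 3, so folds of windows near background partly follow the scaling factors. Kidney's 0.821 in Cyp2c was close to the 0.822 of a bin set to 3 in every library, and says little of kidney. Leaving spleen out gave 63 Cyp2c bins high in liver and 3 Cyp4 bins high in kidney. Over the genome, bins were called again only for liver under the other scalings, so other counts here and below have no such share.

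Leaving spleen out of the folds, with or without the median bin, and the 2-fold runs were chosen after seeing the data. Without spleen, the folds over the mean for liver and kidney were 6.25 and 1.66 in Cyp2c, 1.26 and 2.15 in Cyp4, and 25.3 and 1.51 in Cyp2e1, with a change of direction for kidney in Cyp2c and liver in Cyp4. With the median bin as well, they were 4.22 and 1.26 in Cyp2c, where kidney again changed direction, and 1.63 and 1.14 for kidney in Cyp4 and Cyp2e1. At a 3-fold threshold, 2 Cyp4 bins were high in kidney and 9 were higher in kidney than in liver. Counting each position and strand once gave 1 Cyp4 bin high in kidney. A minimum of 50 reads left 34 Cyp2c bins with liver 4-fold over kidney, and a grid moved by 2.5 kb left 3 such Cyp2e1 bins. Among peaks with at least 20 reads, Cyp2c kept 1 brain, 0 lung and 0 spleen peaks. Cyp4 kept 0 liver, 0 brain, 5 lung and 0 spleen peaks, and Cyp2e1 kept 0 kidney, 0 brain, 0 lung and 1 spleen peaks. Peaks at most 100 bp apart in liver and kidney numbered 0 in Cyp4 and 0 in Cyp2e1.

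No paired analysis was possible because each tissue had 1 library. For the same reason no difference has a replicate check. Bins with few reads, which are common in both gene clusters, limit the calls there, and the placing of reads of near-identical genes is uncertain.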
